A study of Homo sapiens with 12 samples.

Results

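The genes described here are 49 genes of DNA damage signalling and DNA repair, chosen by their symbols and followed across HL-60 libraries. This list and that of further repair genes given below were drawn up with earlier results of these data known. HL-60 cells are a long-established human line, grown from acute myeloid leukemia (AML). All 49 symbols are among the 42157 genes of the count table, and 48 of them passed the filter on low counts that left 13696 genes for testing. The genes were sorted by their textbook roles into 9 sets: 4 damage kinases, 4 genes of signalling on break chromatin, 6 of end resection and break sensing, 7 of homologous recombination, 7 of end joining, 4 of the Fanconi pathway, 6 of base excision and single-strand break repair, 9 of nucleotide excision repair and 2 of mismatch repair. The gene that was not tested, ERCC5, had 0 counts in all 12 libraries.

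Cells were treated for 3 h with the combination of 0.5 µM ML-792 and 1 µM DNR (ML-792+DNR), with 1 µM DNR alone, with 0.5 µM ML-792 alone, or with the vehicle DMSO (mock). Daunorubicin (DNR) is an anthracycline used against AML, which slips between DNA bases and holds topoisomerase II on DNA it has cut. ML-792 blocks the activating enzyme of SUMO, the small modifier that is attached to other proteins. Each group held 3 replicates of poly(A) RNA, which came from independent experiments per the study's methods.

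Libraries held 28647951 to 46451654 reads in genes, and the 49 genes together took 0.609% to 0.716% of them. Mitochondrially encoded transcripts took 4.01% to 6.37% of the reads in the 4 libraries of replicate 1, against 2.49% to 3.48% in the other 8. The line was checked against promyelocytic markers: MPO, myeloperoxidase, was at 10086 to 12198 CPM, the count of a gene scaled to a common library size by TMM, while ELANE, neutrophil elastase, was at only 0.324 to 4.03 CPM. The markers of erythroid cells summed to at most 0.0432 CPM in a library, those of stroma and epithelium to at most 0.0928 CPM and those of B lymphocytes to at most 0.757 CPM, whereas the T and NK list reached 13 CPM through NKG7, with CD3E at 0.

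The cell meets broken DNA with a chain of sensors, kinases and enzymes. Breaks through both strands are sensed by the MRE11-RAD50-NBN complex, which activates the kinase ATM, and are then either ligated end to end or resected and copied from the sister chromatid by homologous recombination. Damage to single bases or to 1 strand is cut out and refilled by base excision, nucleotide excision or mismatch repair, and crosslinks between strands are unhooked in the Fanconi pathway. DNR leaves topoisomerase II bound to cut DNA, but damage was not measured in these libraries. The comparison of DNR with DMSO asks how the transcripts of this machinery stood after 3 h of the drug. The groups with ML-792 ask how they stood with SUMO conjugation inhibited, with or without DNR.

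In mock-treated cells the 48 detected genes spanned a wide range of levels. Levels are compared between genes only per length, as CPM per kb of the canonical transcript. In DMSO the median was 10.2 CPM per kb. The most abundant was XRCC6 at 758 ± 37.6 CPM per kb (SD, n = 3, as for all values after ± that are not marked SE), which with XRCC5 (233 ± 14 CPM per kb) encodes the Ku ring that captures broken ends. PARP1, the main enzyme that marks nicks with poly(ADP-ribose), followed at 189 ± 13.8 CPM per kb. XRCC6, XRCC5 and PARP1 held 46.1% of the CPM summed over the genes. The least abundant was ERCC6 at 1.56 ± 0.0597 CPM per kb, 485-fold below XRCC6.

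Each repair route had its own range in DMSO. Among the kinases, CHEK1, which acts downstream of ATR, was highest at 35.4 ± 1.25 CPM per kb and ATM lowest at 8.05 ± 0.0454 CPM per kb. The kinase that responds to breaks was thus the least abundant of its set. On break chromatin, the adaptor MDC1 was at 27.6 ± 1.84 and the ubiquitin ligase RNF168 at 5.1 ± 0.458 CPM per kb. RBBP8, also called CtIP, which starts resection, was at 68.9 ± 5.04 and the helicase gene WRN at 6.04 ± 0.319 CPM per kb. In homologous recombination, the motor protein gene RAD54L was at 28.4 ± 2.31 and BRCA2, a mediator of strand exchange, at 4.57 ± 0.222 CPM per kb. End joining held the widest range of levels, since beside the Ku genes NHEJ1 (XLF), which bridges the ends, was at 2.26 ± 0.0654 CPM per kb. In the Fanconi pathway, FANCI of the clamp was at 59.8 ± 3.97 and the DNA translocase gene FANCM at 5.69 ± 0.31 CPM per kb. FANCI pairs with FANCD2 in this clamp, which encloses DNA at crosslinks. LIG3, a ligase of single-strand breaks, was the lowest of its set at 7.26 ± 0.752 CPM per kb. In nucleotide excision, ERCC3, a helicase of TFIIH, was at 24.4 ± 1.2 CPM per kb, and in mismatch repair MSH6 was at 66.4 ± 5.08 and PMS2 at 5.93 ± 0.412 CPM per kb. PARP1, XRCC6 and ERCC6 took the remaining extremes of their sets, as given above.

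**Figure D1:**
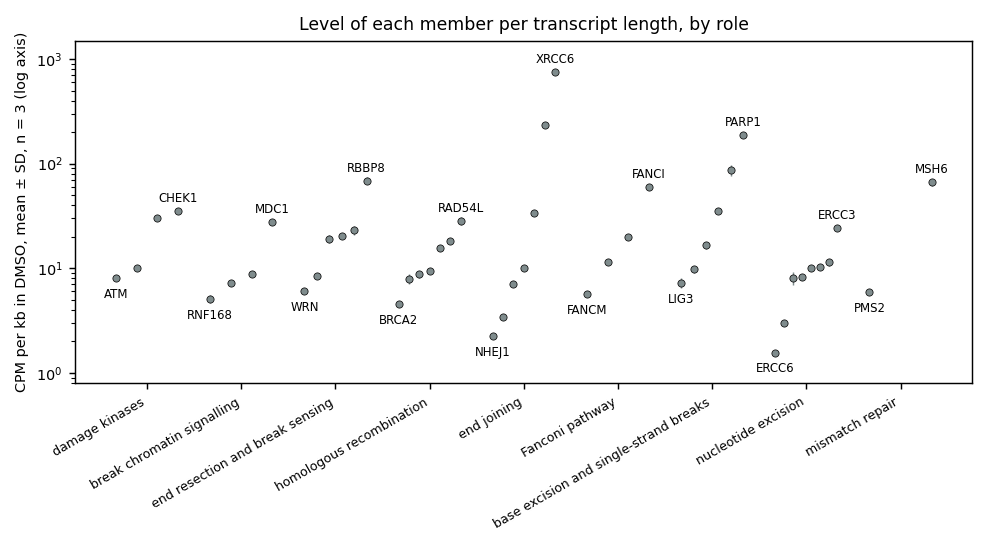
Level of the 48 detected genes in DMSO, as mean CPM per kb of canonical transcript with SD over 3 libraries, on a log axis and grouped by role, with the highest and the lowest gene of each role named. Levels run from 1.56 (ERCC6) to 758 CPM per kb (XRCC6), and the SD bars are short against this range.

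ERCC5, the nuclease that cuts 3′ of a lesion in nucleotide excision, was the exception. Its row was at 0 counts in every library, where 3 counts would correspond to 0.0647 to 0.103 CPM, and a read-through row that spans it, BIVM-ERCC5, held 2 to 13 counts per library. ERCC5 shares its exons with this read-through transcript, so that reads of the gene could count for neither row, and its level is uncertain.

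After 3 h of DNR, more of these transcripts were lower than higher, LIG4 of end joining most of all, and ERCC6 of nucleotide excision rose most. At an adjusted p below 0.05 (edgeR quasi-likelihood test, Benjamini-Hochberg over all tested genes), 15 of 48 genes fell and 4 rose against DMSO, that is 31.2% and 8.33%. Over all tested genes 15.7% fell and 14.2% rose. The median log2 fold change was −0.11 for the 48 genes and 0.01 for all tested genes. Changes were small: 41 of the 48 were under 0.5 on the log2 scale in either direction, and 13 of the 19 changes were under 1.5-fold. With the study's rule of at least 2-fold as well, 1 gene was lower and 0 were higher, where the rule called 2.91% of all tested genes lower and 4.05% higher. In 20 of the 49 genes the 3 DNR libraries all lay below the 3 DMSO libraries, and in 7 above, against 23.6% and 23% of all tested genes. With replicate number added to the model as a block, 19 genes fell and 8 rose, where 21.8% and 20% of tested genes did. Without the libraries of replicate 1, which had the high mitochondrial shares, 8 genes fell and 3 rose, where 7.49% and 6.43% of tested genes did, and the calls of MDC1, RNF168, BLM, RAD52 and PMS2 were among those lost. The part of the mitochondrial share in the result was not tested. These are bulk libraries, in which fewer cells with a transcript and less of it per cell cannot be told apart, and CPM are shares of a library, not amounts per cell.

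**Figure D2:**
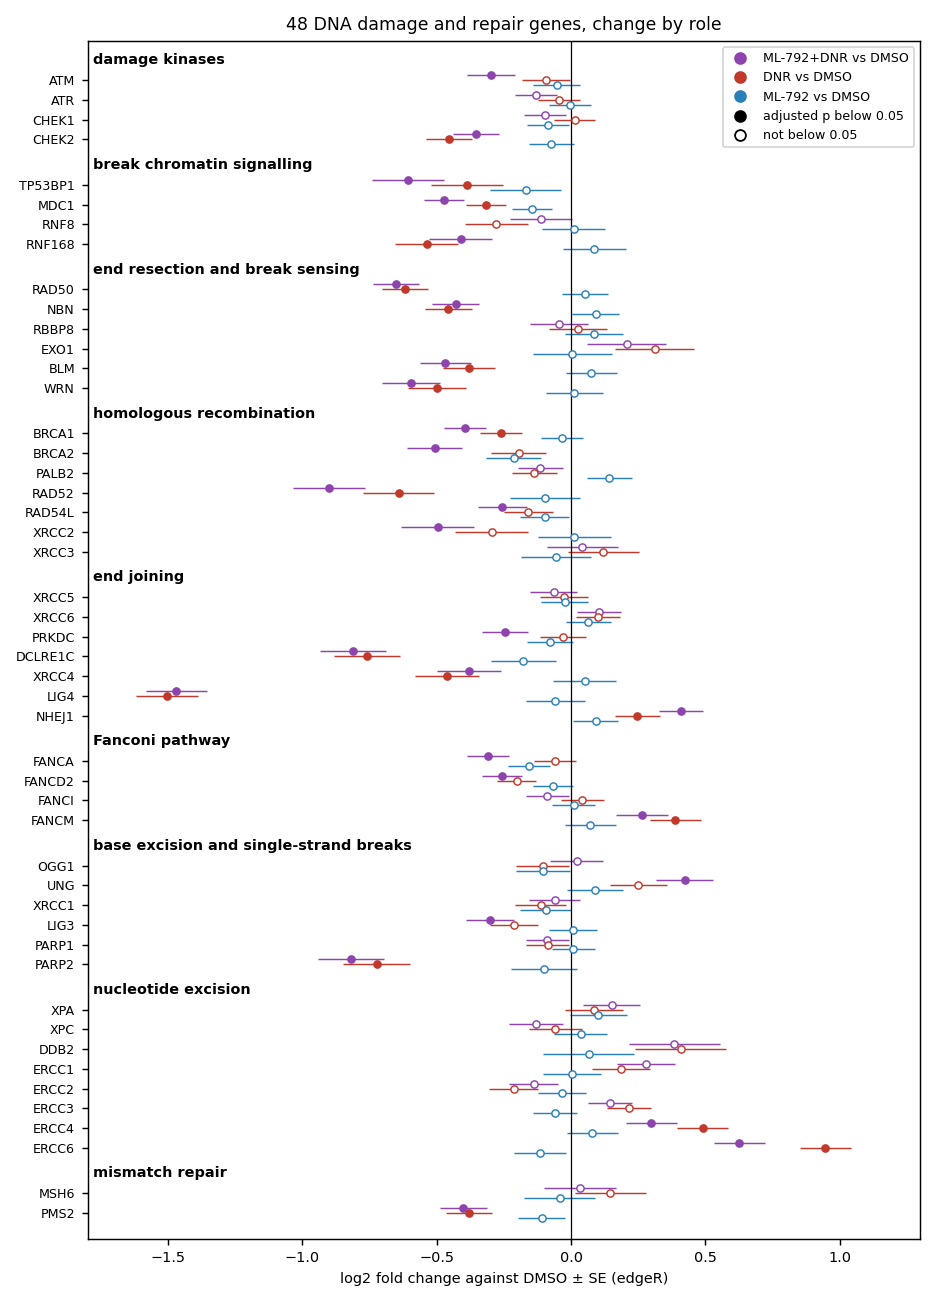
Log2 fold change against DMSO with SE (edgeR) of the 48 tested genes, grouped by role, for ML-792+DNR (purple), DNR (red) and ML-792 (blue). Filled points had an adjusted p below 0.05. LIG4 stands apart at the low end, ERCC6 at the high end, and all blue points lie between −0.21 and 0.14 and are open.

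The largest change was in LIG4 (chr13:108859787-108870716 on GRCh37, minus strand), the ligase that seals ends in non-homologous end joining. LIG4 was at 10.2, 11.5 and 8.98 CPM in ML-792+DNR, 9.91, 9.98 and 10.1 CPM in DNR, 29.5, 28.6 and 23.6 CPM in ML-792 and 28.4, 29.3 and 27.4 CPM in DMSO. The 6 libraries with DNR lay below all 6 libraries without it, with a gap wider than the spread within any group. LIG4 fell by 1.51 on the log2 scale with DNR against DMSO (SE 0.11, to 0.352 of the DMSO level, adjusted p = 9.66e-07). It was the 1 gene that also passed the 2-fold rule.

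Other end joining genes did not move as one. DCLRE1C (chr10:14939358-14996431, minus strand), which encodes the nuclease Artemis that trims hairpin and damaged ends, was at 10.4, 13 and 11.6 CPM in ML-792+DNR, 11.8, 13.1 and 11.5 CPM in DNR, 20.1, 18.7 and 15.6 CPM in ML-792 and 22, 19.4 and 20 CPM in DMSO. Its libraries with and without DNR did not overlap (log2 fold change −0.76 ± 0.12 SE for DNR against DMSO, adjusted p = 0.000443). XRCC4, the partner of LIG4, fell to 11.7 ± 0.441 CPM in DNR, against 16.1 ± 0.264 CPM in DMSO (log2 −0.46 ± 0.12 SE, adjusted p = 0.00998). NHEJ1 (chr2:219934077-220025591, minus strand), which binds XRCC4, was at 24.6, 24 and 23.8 CPM in ML-792+DNR, 21.8, 21.2 and 21.5 CPM in DNR, 20.1, 18.4 and 19.4 CPM in ML-792 and 18.5, 17.5 and 18.4 CPM in DMSO. It rose by 0.25 ± 0.08 (SE) on the log2 scale with DNR (adjusted p = 0.0369), a call that was lost without any 1 of the 3 DNR or 3 DMSO libraries, or without replicate 1 or 3 of ML-792+DNR (adjusted p up to 0.121). The abundant XRCC5, XRCC6 and PRKDC, the kinase that Ku recruits, had log2 fold changes of −0.03, 0.10 and −0.03, and none passed the test.

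**Figure D3:**
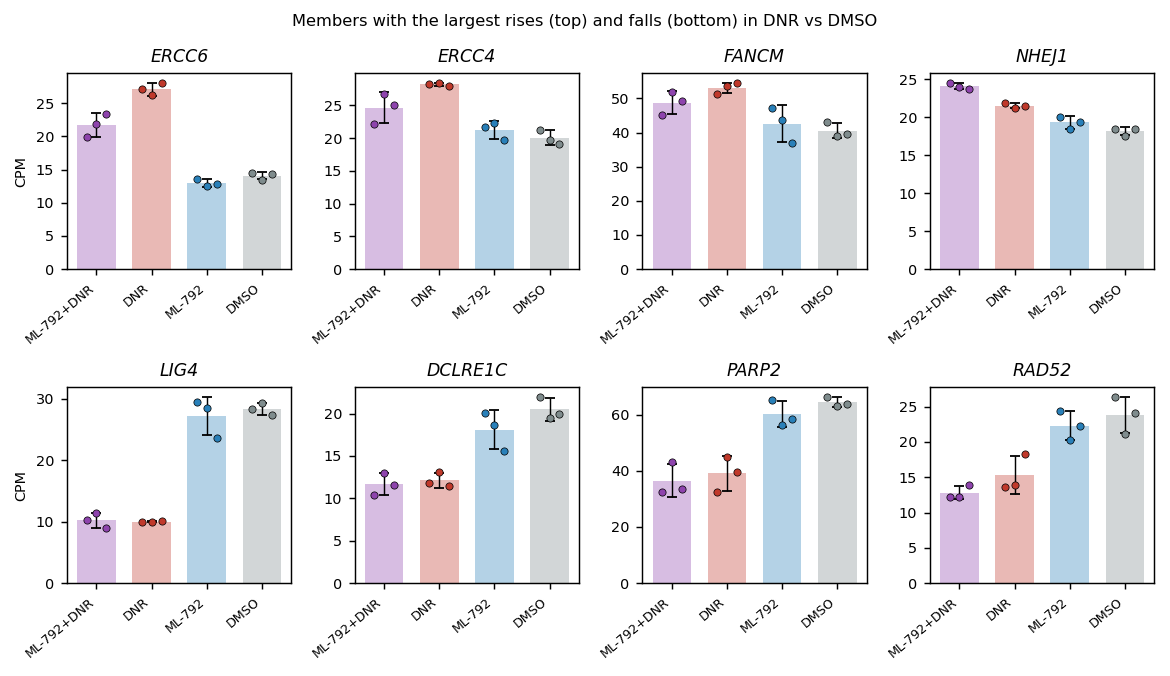
CPM in each library (points), group mean (bars) and SD over 3 libraries (error bars) of the 4 genes with the largest rises (top) and the 4 with the largest falls (bottom) among those at an adjusted p below 0.05 in DNR vs DMSO. For LIG4, DCLRE1C, PARP2 and RAD52, every library with DNR lies below every library without it, and for ERCC6 every one lies above.

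Transcripts of several genes that signal around breaks were lower, while signalling itself was not measured. All 4 genes of break chromatin signalling had a log2 fold change below 0 with DNR, and 3 of the 4 fell. RNF168, the ligase that ubiquitylates histone H2A, fell to 18.8 ± 2.09 CPM in DNR, against 27.3 ± 2.45 CPM in DMSO (log2 −0.54 ± 0.12 SE, adjusted p = 0.00374). MDC1, which binds phosphorylated H2AX, fell to 154 ± 8.55 CPM, against 193 ± 12.8 CPM in DMSO (log2 −0.32 ± 0.07 SE, adjusted p = 0.00552). TP53BP1, which shields ends from resection, fell to 57.3 ± 8.26 CPM in DNR, against 74.8 ± 5.37 CPM in DMSO (log2 −0.39 ± 0.13 SE, adjusted p = 0.0425). The TP53BP1 call was lost without replicate 1 or 3 of DNR, replicate 2 of ML-792, replicate 3 of ML-792+DNR or any DMSO library (adjusted p up to 0.165). RNF8, the ligase upstream of RNF168, had a log2 fold change of −0.28 ± 0.12 (SE), with an adjusted p of 0.0883.

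Of the 4 kinases, only CHEK2, which ATM phosphorylates, passed the test. It fell to 40.6 ± 2.43 CPM in DNR, against 55.6 ± 1.33 CPM in DMSO (log2 −0.45 ± 0.09 SE, adjusted p = 0.00128). ATM, ATR and CHEK1 had log2 fold changes between −0.09 and 0.01.

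Break sensing and resection showed a split between its genes. RAD50, the ATPase of the MRE11-RAD50-NBN complex, fell to 45.4 ± 2.35 CPM in DNR, against 69.6 ± 2.67 CPM in DMSO (log2 −0.62 ± 0.09 SE, adjusted p = 0.000138), and NBN fell to 63.9 ± 0.465 CPM, against 87.7 ± 7.44 CPM in DMSO (log2 −0.46 ± 0.09 SE, adjusted p = 0.00158). Both RecQ helicases fell as well. WRN was at 32.4 ± 1.27 CPM in DNR and 45.8 ± 2.41 CPM in DMSO (log2 −0.50 ± 0.11 SE, adjusted p = 0.00329), and BLM at 82.3 ± 7.62 CPM in DNR and 107 ± 6.84 CPM in DMSO (log2 −0.38 ± 0.10 SE, adjusted p = 0.00844). RBBP8, which starts resection, and the exonuclease gene EXO1 had log2 fold changes of 0.03 ± 0.11 and 0.31 ± 0.15 (SE) and did not pass the test (adjusted p = 0.888 and 0.133).

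In homologous recombination 2 of 7 genes fell and 0 rose. RAD52 (chr12:1020902-1099219, minus strand), which anneals single strands, was at 12.3, 12.2 and 13.8 CPM in ML-792+DNR, 13.6, 14 and 18.4 CPM in DNR, 24.4, 20.3 and 22.2 CPM in ML-792 and 26.3, 21.1 and 24.1 CPM in DMSO. Replicate 3 was the highest of the DNR libraries, yet it lay below every library without DNR (log2 −0.64 ± 0.13 SE for DNR against DMSO, adjusted p = 0.00245). BRCA1 fell to 93.4 ± 6.91 CPM in DNR, against 112 ± 5.61 CPM in DMSO (log2 −0.26 ± 0.08 SE, adjusted p = 0.0219), and this call was lost without replicate 1 or 2 of DNR or replicate 1 or 3 of DMSO (adjusted p up to 0.0628). BRCA2, PALB2, which joins BRCA1 to BRCA2, RAD54L and the recombination genes XRCC2 and XRCC3 had log2 fold changes between −0.30 and 0.12.

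Among genes for base damage and nicks, the change was in PARP2 (chr14:20811774-20826063, plus strand), the less abundant relative of PARP1. PARP2 was at 32.6, 43.3 and 33.6 CPM in ML-792+DNR, 32.6, 44.8 and 39.8 CPM in DNR, 65.3, 56.5 and 58.6 CPM in ML-792 and 66.5, 63.2 and 63.8 CPM in DMSO. Libraries with and without DNR did not overlap, and replicate 2 was the highest in both groups with DNR (log2 −0.72 ± 0.12 SE for DNR against DMSO, adjusted p = 0.000671). PARP1, in contrast, was at 708 ± 43.8 CPM in DNR and 751 ± 54.9 CPM in DMSO (log2 −0.09 ± 0.08 SE, adjusted p = 0.456). The scaffold XRCC1, LIG3, and the glycosylase genes OGG1 and UNG, which remove oxidised guanine and uracil, did not pass the test with DNR alone.

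Beside NHEJ1, the rises lay in nucleotide excision and the Fanconi pathway. ERCC6 (chr10:50662214-50747584, minus strand), also called CSB, which starts repair at RNA polymerase stalled on a lesion, was at 19.8, 21.9 and 23.4 CPM in ML-792+DNR, 27.1, 26.2 and 28.1 CPM in DNR, 13.6, 12.5 and 12.8 CPM in ML-792 and 14.5, 13.5 and 14.3 CPM in DMSO. The DNR libraries lay highest, those of ML-792+DNR below them without overlap, and those without DNR lowest. ERCC6 rose 1.93-fold with DNR (log2 0.95 ± 0.09 SE, adjusted p = 9.56e-06), just under the 2-fold rule.

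ERCC4 (chr16:14013995-14046205, plus strand), also called XPF, the nuclease that cuts 5′ of a lesion, was at 22.2, 26.7 and 25.1 CPM in ML-792+DNR, 28.2, 28.5 and 27.9 CPM in DNR, 21.7, 22.2 and 19.6 CPM in ML-792 and 21.3, 19.7 and 19.1 CPM in DMSO (log2 0.49 ± 0.09 SE for DNR against DMSO, adjusted p = 0.0016). Its partner ERCC1 had a log2 fold change of 0.19 ± 0.11 (SE), with an adjusted p of 0.214. FANCM (chr14:45605133-45670093, plus strand), which remodels stalled replication forks, was at 45, 51.8 and 49.2 CPM in ML-792+DNR, 51.4, 53.5 and 54.4 CPM in DNR, 47.2, 43.8 and 36.8 CPM in ML-792 and 43.1, 38.9 and 39.6 CPM in DMSO (log2 0.39 ± 0.10 SE for DNR against DMSO, adjusted p = 0.00771). For both genes the DNR libraries lay above all DMSO libraries, whereas the ML-792+DNR and ML-792 libraries overlapped, through ML-792 replicate 1 for FANCM and ML-792 replicate 2 for ERCC4.

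The other genes of these routes did not pass the test in the main fit. FANCA, FANCD2 and FANCI had log2 fold changes between −0.20 and 0.04. FANCD2 had an adjusted p of 0.052 (edgeR) and passed in 10 of 22 other settings. The lesion sensors DDB2 and XPC were at 0.41 ± 0.17 and −0.06 ± 0.10 (SE), with adjusted p = 0.0854 and 0.703. The TFIIH helicase genes ERCC2 and ERCC3 were at −0.21 and 0.21, and XPA, which verifies the lesion, at 0.08. With replicate number as a block (edgeR), DDB2 (adjusted p = 0.00546), ERCC3 (0.0176), FANCD2 (0.0234) and ERCC2 (0.0268) passed. Mismatch repair was divided. PMS2, an endonuclease subunit, fell to 23.2 ± 0.683 CPM in DNR, against 30.2 ± 2.1 CPM in DMSO (log2 −0.38 ± 0.09 SE, adjusted p = 0.00481), whereas MSH6, which binds mismatches, was at 0.15 ± 0.13 (SE).

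Counts of some of these genes carry uncertainty from the genome itself. PMS2, CHEK2 and FANCD2 are known to have near-identical pseudogene copies, and the copy PMS2CL held 63 to 158 counts per library. A gene on the opposite strand overlaps 27 of the 49 genes. Among them are CHEK2 (HSCB), TP53BP1 (TUBGCP4), MDC1 (TUBB), NBN (DECR1 and OSGIN2), XRCC4 (TMEM167A), DCLRE1C (SUV39H2) and ERCC1 (FOSB). The labels and methods do not say whether reads were counted by strand. Part of the reads in such overlaps could be shared or left out as ambiguous. Over all libraries TUBB held 1593161 counts and FOSB 8442. The paper names FOSB among the genes that DNR induced most. Whether TUBB reads entered the counts of MDC1, or FOSB reads those of ERCC1, was not tested.

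Below are the 250 bases before the canonical transcript starts of the 2 genes with the largest falls and the 2 with the largest rises. They are shown because they differ in CCAAT boxes, and for DCLRE1C in GGGCGG boxes, so that this contrast was fixed by the choice. They were read from the GRCh37 genome on the strand of each gene, LIG4 at chr13:108867885-108868134 and DCLRE1C at chr10:14996096-14996345 on the minus strand, ERCC6 at chr10:50747168-50747417 on the minus strand and ERCC4 at chr16:14013761-14014010 on the plus strand. Capitals mark matches to CCAAT or GGGCGG on either strand, where overlapping matches run together.
LIG4: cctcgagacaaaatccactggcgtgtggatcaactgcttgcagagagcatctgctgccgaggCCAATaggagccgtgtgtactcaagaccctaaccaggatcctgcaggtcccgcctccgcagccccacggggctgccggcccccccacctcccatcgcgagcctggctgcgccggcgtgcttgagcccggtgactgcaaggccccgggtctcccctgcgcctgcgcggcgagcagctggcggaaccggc
DCLRE1C: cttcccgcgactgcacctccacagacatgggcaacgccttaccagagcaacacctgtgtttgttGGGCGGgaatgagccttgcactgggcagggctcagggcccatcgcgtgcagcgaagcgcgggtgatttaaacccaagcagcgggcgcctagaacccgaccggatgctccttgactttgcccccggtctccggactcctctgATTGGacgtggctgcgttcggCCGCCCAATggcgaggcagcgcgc
ERCC6: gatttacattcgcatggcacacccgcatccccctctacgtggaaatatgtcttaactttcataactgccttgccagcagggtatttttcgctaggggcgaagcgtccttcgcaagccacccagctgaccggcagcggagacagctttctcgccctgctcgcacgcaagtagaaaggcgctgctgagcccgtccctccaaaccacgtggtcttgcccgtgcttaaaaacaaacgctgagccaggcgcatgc
ERCC4: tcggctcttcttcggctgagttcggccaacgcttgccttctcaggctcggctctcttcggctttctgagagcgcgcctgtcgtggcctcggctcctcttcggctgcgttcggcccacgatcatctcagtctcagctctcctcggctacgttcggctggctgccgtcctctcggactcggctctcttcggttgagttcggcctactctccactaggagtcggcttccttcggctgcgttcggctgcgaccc

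LIG4 holds 1 CCAAT box and no GGGCGG box, DCLRE1C 2 CCAAT boxes and 2 GGGCGG boxes, and ERCC6 and ERCC4 neither. The contrast was not general: FANCM and NHEJ1 rose as well, and FANCM holds 2 CCAAT boxes and NHEJ1 2 GGGCGG boxes. CCAAT lay in 7 of the 15 windows of genes that fell (46.7%), 1 of the 4 that rose and 19 of all 49 (38.8%), against 34.4% of the windows of 12285 tested genes with a canonical transcript. Among those tested genes the order was the reverse, with CCAAT in 31.9% of those that fell and 40.5% of those that rose. GGGCGG lay in 10 of the 15 that fell, 1 of the 4 that rose and 65.3% of the 49, against 66.5% of tested genes. It lay in 68.8% of tested genes that fell and 69.6% of those that rose. TATAAA lay in 0 of the 49 windows, against 6.14% of tested genes. An E2F-type box (TTTCCCGC, TTTGGCGC, TTTCGCGC or TTTGCCGC on either strand) lay in 3 of the 49 (6.12%), against 4.38%. Matches are letters in these windows, not measured binding sites.

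LIG4 also has a close neighbour. ABHD13 (chr13:108870740-108886591, plus strand), a gene of the abhydrolase family, starts 24 bases from the outermost start of LIG4 on the opposite strand, and that start lies 2832 bases before the canonical start used above. ABHD13 was at 39.7, 50.8 and 48.5 CPM in ML-792+DNR, 36.9, 42.6 and 43.6 CPM in DNR, 67.8, 58.2 and 64 CPM in ML-792 and 58.6, 56.1 and 57.2 CPM in DMSO. It fell with DNR too (log2 −0.48 ± 0.10 SE, adjusted p = 0.00286), by less than LIG4. Of the 49 genes, 20 have a neighbour that starts within 1000 bases on the other strand.

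ML-792 alone left these transcripts near their mock levels. Of 48 genes, 0 changed (edgeR, adjusted p of 1 for each), 0 had an unadjusted p below 0.05 (2.45% of tested genes were higher and 2.59% lower by that rule), and DESeq2 and limma voom likewise called 0. Over all tested genes 0.183% rose and 0.0584% fell. The log2 fold changes ran from −0.21 (BRCA2) to 0.14 (PALB2), and their 95% confidence intervals stayed between −0.46 and 0.43. The ML-792 libraries lay apart from those of DMSO, all lower, in 2 of 49 genes and all higher in 0, against 5.98% and 4.51% of tested genes. LIG4 was at 27.2 ± 3.16 CPM in ML-792 and 28.4 ± 0.981 CPM in DMSO, and ERCC6 at 13 ± 0.596 CPM in ML-792 and 14.1 ± 0.537 CPM in DMSO. All 6 genes of resection and break sensing were above 0 by at most 0.09 and all 4 kinases below 0, down to −0.09, with SE of 0.08 to 0.15.

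With both drugs, more of the genes were lower than with DMSO. In ML-792+DNR, 23 of 48 genes fell (47.9%) and 5 rose (10.4%) against DMSO, where 18.4% and 16.9% of all tested genes did. The median log2 fold change was −0.14 for the 48 genes and 0.02 for all tested genes. With the 2-fold rule 1 gene was lower, LIG4, and 0 were higher (2.56% and 3.86% of tested genes). The 3 libraries lay below all DMSO libraries in 25 of 49 genes and above them in 8, against 24.5% and 24.2% of tested genes. Replicate numbers paired the libraries here, and with the replicate block DDB2 (adjusted p = 0.00678) and ERCC1 (adjusted p = 0.0398) rose as well, 7 genes in all, where 24% of tested genes rose. Without the libraries of replicate 1, 12 genes fell and 3 rose, where 9.09% and 6.45% of tested genes did. The log2 fold changes ran with transcript length in this comparison: the Spearman rho with canonical transcript length was −0.28 over the 48 genes and −0.36 over 12285 tested genes, against −0.10 and −0.22 for DNR vs DMSO, and tested genes over 10 kb had a median of −0.31. The part of transcript length in the counts of genes that fell was not tested. This comparison and that of DNR share the DMSO libraries.

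LIG4 was again the largest fall (log2 −1.47 ± 0.11 SE, adjusted p = 2.19e-06). RAD52 fell by 0.90 on the log2 scale (SE 0.13, adjusted p = 0.000229), PARP2 by 0.82 (SE 0.12, adjusted p = 0.000279) and DCLRE1C by 0.81 (SE 0.12, adjusted p = 0.000281). RAD50 was at 44.3 ± 3.38 CPM in ML-792+DNR (log2 −0.65 ± 0.09 SE, adjusted p = 0.000101), TP53BP1 at 49.1 ± 9.55 CPM (log2 −0.61 ± 0.13 SE, adjusted p = 0.00362), WRN at 30.3 ± 4.43 CPM (log2 −0.60 ± 0.11 SE, adjusted p = 0.000932) and MDC1 at 139 ± 2.1 CPM (log2 −0.47 ± 0.07 SE, adjusted p = 0.000347), all below the DMSO values given above. BLM (77.4 ± 5.35 CPM, log2 −0.47 ± 0.10 SE, adjusted p = 0.00206), NBN (65.1 ± 2.51 CPM, log2 −0.43 ± 0.09 SE, adjusted p = 0.00219), PMS2 (22.9 ± 0.766 CPM, log2 −0.40 ± 0.09 SE, adjusted p = 0.00306) and BRCA1 (84.9 ± 5.56 CPM, log2 −0.40 ± 0.08 SE, adjusted p = 0.00168) fell as well.

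Several genes that had not passed the test with DNR alone did so here. BRCA2 fell to 38.5 ± 4.45 CPM in ML-792+DNR, against 54.6 ± 2.65 CPM in DMSO (log2 −0.51 ± 0.10 SE, adjusted p = 0.00203). XRCC2 fell to 29.7 ± 6.14 CPM, against 41.9 ± 3.1 CPM in DMSO (log2 −0.50 ± 0.14 SE, adjusted p = 0.0125), and FANCA, of the Fanconi core complex, to 50.2 ± 2.17 CPM, against 62.2 ± 3.76 CPM in DMSO (log2 −0.31 ± 0.08 SE, adjusted p = 0.00819). ATM was at 84.6 ± 9.32 CPM in ML-792+DNR and 104 ± 0.586 CPM in DMSO (log2 −0.30 ± 0.09 SE, adjusted p = 0.0192). UNG rose to 238 ± 18.1 CPM in ML-792+DNR, against 177 ± 21.5 CPM in DMSO (log2 0.42 ± 0.11 SE, adjusted p = 0.00728). That these passed the test here and not with DNR alone does not show a difference between the treatments, which the direct comparison of both groups addresses.

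Smaller falls with both drugs were those of RNF168 (log2 −0.41 ± 0.12 SE, adjusted p = 0.0151), XRCC4 (−0.38 ± 0.12 SE, adjusted p = 0.0236), CHEK2 (−0.35 ± 0.08 SE, adjusted p = 0.00592), LIG3 (−0.30 ± 0.09 SE, adjusted p = 0.0176), FANCD2 (−0.26 ± 0.07 SE, adjusted p = 0.0157), RAD54L (−0.26 ± 0.09 SE, adjusted p = 0.0435) and PRKDC (−0.25 ± 0.09 SE, adjusted p = 0.0392). The rises were those of ERCC6 (0.63 ± 0.09 SE, adjusted p = 0.000272), NHEJ1 (0.41 ± 0.08 SE, adjusted p = 0.00195), ERCC4 (0.30 ± 0.09 SE, adjusted p = 0.0252) and FANCM (0.26 ± 0.10 SE, adjusted p = 0.0456), beside UNG. Calls lost when 1 library was left out, with the highest adjusted p so reached, were those of FANCM (any DNR, ML-792+DNR or DMSO library, or ML-792 replicate 2, 0.128), RAD54L (any ML-792+DNR library, DMSO replicate 1 or 2, or ML-792 replicate 2, 0.161), PRKDC (replicate 1 or 2 of ML-792+DNR or DMSO, 0.165) and ERCC4 (replicate 2 or 3 of ML-792+DNR or DMSO, 0.1). The same held for XRCC4 (ML-792+DNR replicate 3 or any DMSO library, 0.0808), ATM (ML-792+DNR replicate 1 or 3, 0.0903), LIG3 (0.079) and FANCD2 (0.0612), both without replicate 1 of ML-792+DNR or DMSO, and RNF168 (DMSO replicate 1, 0.0575).

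The test of what ML-792 added to DNR found little in these genes. Of 48 genes, 0 rose and 0 fell in ML-792+DNR against DNR (edgeR, lowest adjusted p = 0.153), where 0.27% and 0.518% of tested genes did. At an unadjusted p below 0.05, 5 genes were lower (ATM, BRCA2, PRKDC, FANCA and ERCC6) and 0 higher, where 7.8% and 5.04% of tested genes were. DESeq2 called 1 lower (ERCC6), where it called 1.77% of tested genes lower, and limma voom called 0. The libraries of ML-792+DNR all lay below those of DNR in 6 of 49 genes and above in 2, against 9.86% and 8.89% of tested genes. ERCC6 averaged 21.7 ± 1.79 CPM in ML-792+DNR and 27.1 ± 0.973 CPM in DNR (SD, n = 3 each), a log2 fold change of −0.32 ± 0.09 (SE, 95% confidence interval −0.52 to −0.12). In this comparison replicate numbers paired the libraries, and with the replicate block ERCC6 fell at an adjusted p of 0.0406, so that 1 gene was lower where 2.53% of tested genes were. LIG4 was at 0.04 ± 0.12 (SE, 95% confidence interval −0.21 to 0.28). All log2 fold changes lay between −0.32 and 0.17, and the confidence intervals of the 48 genes reached from −0.55 to 0.42.

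These small differences ran with transcript length. Of the 48 genes, 33 were below 0 and 15 above, where 6812 of 13696 tested genes were below. The Spearman rho of the log2 fold change of ML-792+DNR against DNR with canonical transcript length was −0.51 over the 48 genes and −0.34 over 12285 tested genes, given as a description, since genes of one set of libraries are not independent. With the number of exons it was −0.52 and −0.27. The 4 genes with transcripts over 10 kb, ATM, BRCA2, PRKDC and TP53BP1, were all below 0 with a median of −0.22, where 474 tested genes of this length had a median of −0.17. The 6 genes of 1 to 2 kb had a median of 0.07, where 2309 tested genes had 0.08. Gene span, introns included, gave a rho of −0.28 over the 48 genes and −0.33 over 12346 tested genes.

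**Figure D4:**
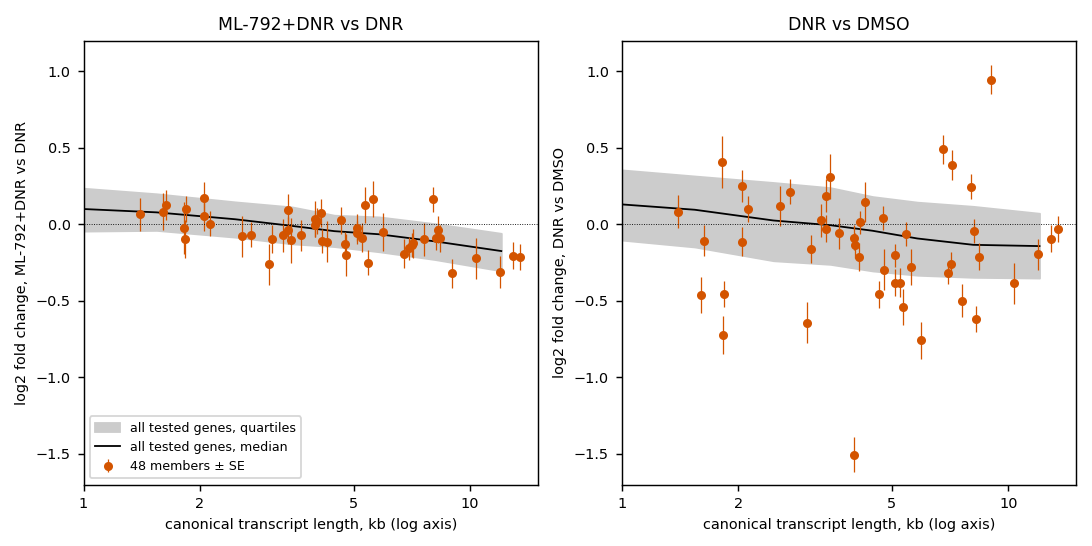
Log2 fold change against canonical transcript length in kb (log axis) for ML-792+DNR vs DNR (left) and DNR vs DMSO (right). Points are the 48 genes with SE (edgeR), the line and grey band the median and quartiles of all tested genes in bins of length. On the left the genes over 10 kb have a median of −0.22, against −0.17 for all tested genes of that length, and on the right LIG4 and ERCC6 lie far outside it.

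The same order with length was seen library by library over all tested genes. When each library was set against the mean of all 12, the rho with transcript length was −0.36, −0.19 and −0.36 in the ML-792+DNR libraries, −0.14, 0.08 and −0.14 in DNR, 0.27, 0.19 and −0.01 in ML-792, and 0.33, 0.22 and 0.17 in DMSO. Over the 48 genes it was −0.45, −0.12 and −0.14 in ML-792+DNR, 0.04, 0.00 and 0.09 in DNR, 0.22, −0.05 and −0.04 in ML-792, and 0.28, 0.11 and 0.15 in DMSO. In both sets the ML-792+DNR libraries had the lowest values, while the DNR and ML-792 libraries overlapped. The tilt differed between replicates, with replicate 1 the steepest among the 48 genes in ML-792+DNR and in DMSO. The part of RNA quality or library preparation in it was not tested.

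The effect of DNR was also measured in cells that all had ML-792. Against ML-792, 20 of 48 genes fell in ML-792+DNR and 3 rose (41.7% and 6.25%), where 17.4% and 16.2% of tested genes did. Those that rose were ERCC6 (21.7 ± 1.79 CPM in ML-792+DNR and 13 ± 0.596 CPM in ML-792, log2 0.74 ± 0.10 SE), UNG (0.33 ± 0.11 SE) and NHEJ1 (0.32 ± 0.08 SE). LIG4 was the gene called at 2-fold, lower by 1.41 on the log2 scale (SE 0.11, adjusted p = 2.91e-06), where this rule called 2.64% of tested genes lower and 3.66% higher. The libraries did not overlap in 22 genes that were lower and 6 that were higher, against 21.5% and 21.3% of tested genes. With the replicate block, which the numbers allowed here, 7 genes rose (ERCC1, ERCC3, ERCC4 and DDB2 among them) and 21 fell, where 22.7% and 23.2% of tested genes did. Without ML-792 replicate 1 the number that fell was 12, where 13.2% of tested genes fell, and without all libraries of replicate 1 it was 7, where 7.28% did. Several calls were lost when 1 library was left out. Without ML-792 replicate 1 these were ATM, CHEK2, TP53BP1, BRCA2, PALB2, XRCC4, LIG3, PMS2 and UNG. Each of these 9 was also lost without at least 1 of the ML-792+DNR libraries, UNG without replicate 1 or 2 (adjusted p up to 0.0932). CHEK2 and TP53BP1 were lost without ML-792 replicate 2 as well, and ATM, BRCA2 and UNG without ML-792 replicate 3. The ATM call was also lost without any 1 of the DMSO libraries.

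The interaction asks whether the effect of DNR differed with and without ML-792. It gave 0 of 48 genes at an adjusted p below 0.05 (edgeR), as it gave 0% of all tested genes. At an unadjusted p below 0.05 it also gave 0 of 48, where 1.46% of tested genes were higher and 2.12% lower. DESeq2, limma voom and the fit with the replicate block called 0 of the 48 as well, although over all tested genes the block called 3 lower and DESeq2 14 lower and 3 higher. The interaction terms lay between −0.27 (ERCC4) and 0.23 (OGG1), and their 95% confidence intervals reached from −0.63 to 0.53. For LIG4 the term was 0.09 ± 0.16 (SE, 95% confidence interval −0.25 to 0.44) and for ERCC6 −0.21 ± 0.13 (SE, −0.49 to 0.08), and both intervals include 0.

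Further repair genes moved in both directions. A wider list held 98 further genes of the same routes and of a further route, translesion synthesis, and 95 were tested. With DNR 25 of the 95 fell (26.3%) and 14 rose (14.7%) against DMSO, where 15.7% and 14.2% of all tested genes did. Their median log2 fold change was −0.05. By route, 5 of 11 further genes of break chromatin signalling, 5 of 11 of homologous recombination and 4 of 8 of the Fanconi pathway fell, whereas 5 of 16 of base excision rose and 2 fell. Of the 8 genes of translesion synthesis, 3 fell and 2 rose. SLX4, a scaffold for nucleases that cut joint molecules, was the one called lower at 2-fold. It was at 5.53, 4.96 and 5.92 CPM in DNR and 14.2, 13.3 and 15.5 CPM in DMSO (log2 −1.39 ± 0.14 SE, adjusted p = 8.12e-06), with no overlap. APLF, an end joining factor, was called higher at 3.2, 2.29 and 3.3 CPM in DNR and 1.14, 1.18 and 1.4 CPM in DMSO (log2 1.24 ± 0.26 SE, adjusted p = 0.00315), and the glycosylase gene NEIL1 at 0.749, 0.589 and 0.81 CPM in DNR and 0.281, 0.371 and 0.382 CPM in DMSO (log2 1.06 ± 0.28 SE, adjusted p = 0.0113). NEIL1 rests on 19 to 26 counts per DNR library and 12 to 15 per DMSO library. With ML-792, 0 of the 95 changed, and in ML-792+DNR against DNR 0 changed.

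Abundance and gene size were set beside the change with DNR. None of the 8 genes above a mean of 200 CPM over all libraries (XRCC6, XRCC5, PARP1, PRKDC, MSH6, FANCI, RBBP8 and UNG) passed the test in DNR against DMSO. Of the 16 genes from 50 to 200 CPM 7 fell (43.8%), of the 16 from 20 to 50 CPM 4 fell and 3 rose, and of the 8 under 20 CPM 4 fell and 1 rose. In all tested genes 10.4% fell above 200 CPM, 20.3% from 50 to 200 CPM, 22% from 20 to 50 CPM and 11.9% under 20 CPM, where the 48 genes had 0%, 43.8%, 25% and 50% in these bins. The genes that fell spanned 10.9 to 276 kb of the genome with a median of 78.3 kb, those that rose had a median of 75.2 kb and the others 42.9 kb. Among all tested genes the share that fell with DNR was 10.3% under 10 kb and 25.6% over 100 kb, but none of the tested 48 is under 10 kb. Over the 48 genes the rho of gene span with the change was −0.01, against −0.21 over all tested genes. The 49 genes lie on 19 chromosomes, with at most 5 on one, chromosome 3.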

How the data were processed

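Poly(A) RNA was sequenced from 12 HL-60 libraries in 4 groups of 3, prepared with a TruSeq Stranded mRNA kit. Whole-number counts of reads per gene were deposited by the authors, and no normalization had been applied to them. The submitters' processing notes name TopHat2 2.1.1, Bowtie2 2.3.5.1, Picard, HTSeq 0.11.1, Cufflinks 2.2.1, DESeq2 and the build hg19. Reads with several alignments (26.6% to 29.2% of records) and ambiguous reads (2.26% to 2.83%) entered no gene count, so that near-identical copies are under-counted. The 5 HTSeq summary lines were left out. The authors' normalized table and their table of fold changes and p-values were not used.

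Groups were compared with edgeR 4.0.16 in R 4.3.3 (TMM scaling, factors 0.954 to 1.04, filterByExpr with a minimum count of 10 and total of 15, robust quasi-likelihood F test, 1 model over all 12 libraries, Benjamini-Hochberg over 13696 genes and 6 comparisons taken separately). Intervals are 95% confidence intervals. DESeq2 1.42.0, limma voom 3.58.1, other scalings, filters, a replicate block, and libraries left out in turn were alternatives. Groups came from the GEO labels. Same-numbered libraries deviated together: correlations of their deviations from group means were 0.0722 to 0.587, against −0.498 to 0.0913 for different numbers, and all 3 pairs exceeded 0.1 in every comparison except DNR with DMSO (lowest 0.0852). Gene positions, lengths and promoters were taken from GRCh37 and its lifted GENCODE annotation. Named with every library were genes past 2-fold and the 4 largest rises and falls at an adjusted p below 0.05 with DNR, with group means other changed genes and the extremes of level in each role, and of the wider list those past 2-fold. The 49 genes, the roles and the wider list were chosen with earlier results of these data known. The fits were tested on simulated data with known fold changes.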

Additional observations from a re-analysis of the deposited data

How the results depend on the processing

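Each comparison was refitted under 22 other settings, the interaction under 21. All 19 genes past the threshold in DNR vs DMSO, all 28 in ML-792+DNR vs DMSO and all 23 in ML-792+DNR vs ML-792 kept their direction in every setting, and 11, 13 and 8 of them kept their side of the threshold in every setting. In DNR vs DMSO, deviations of same-numbered libraries correlated at 0.0852, 0.249 and 0.336, against −0.275 to 0.00401 for different numbers. The main fit left this pairing out. With the replicate block 8 genes rose and 19 fell, where 20% and 21.8% of tested genes did. Those gained were EXO1, UNG, DDB2 and ERCC3, which rose, and RNF8, XRCC2, FANCD2 and ERCC2, which fell. The block also gave 7 rises in ML-792+DNR vs ML-792 and, like DESeq2, 1 fall in ML-792+DNR vs DNR, and changed no call of ML-792 vs DMSO or of the interaction among these genes. With replicates 2 and 3 only, 8 genes fell in DNR vs DMSO, 3 rose and 12 fell in ML-792+DNR vs DMSO, and 1 rose and 7 fell in ML-792+DNR vs ML-792, where 5.55% and 7.28% of tested genes did. Fewer libraries enter this setting. Library size scaling and no count filter each left 3 rises in ML-792+DNR vs DMSO, where 13.8% and 8.38% of tested genes rose. With a fold of at least 1.5 in place of 2, 1 gene was higher and 5 lower in DNR vs DMSO, 1 higher and 7 lower in ML-792+DNR vs DMSO, and 1 higher and 6 lower in ML-792+DNR vs ML-792, where this rule called 7.27% to 7.59% of tested genes higher and 7.24% to 8.25% lower. When 1 library was left out, 3 to 5 genes rose and 13 to 17 fell in DNR vs DMSO, 3 to 6 rose and 17 to 23 fell in ML-792+DNR vs DMSO, and 2 to 4 rose and 12 to 20 fell in ML-792+DNR vs ML-792. Of tested genes 8.81% to 14.7% rose and 10% to 16.8% fell in these refits of DNR vs DMSO. The shares were 9.98% to 17.9% and 13.2% to 19.4% in ML-792+DNR vs DMSO, and 8.93% to 17.3% and 12.1% to 18.7% in ML-792+DNR vs ML-792. The low ends were 3 rises in ML-792+DNR vs DMSO without ML-792+DNR replicate 3, DMSO replicate 2 or DMSO replicate 3, and 12 falls in ML-792+DNR vs ML-792 without ML-792 replicate 1. The cause of these shifts was not tested. The low counts of NEIL1 (7 to 26 per library) limit its precision.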
